A study of Homo sapiens with 3 samples.

Results

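The miR-17 to miR-92a cluster is a run of 6 miRNA hairpins, listed as hsa-mir-17, hsa-mir-18a, hsa-mir-19a, hsa-mir-20a, hsa-mir-19b-1 and hsa-mir-92a-1, that are cut from a single long RNA of the host gene MIR17HG on chromosome 13. Its members were taken by name: 6 of the 661 hairpins listed, and 12 of the 783 mature miRNA names listed, which are both arms of each hairpin. The study profiled the miRNAs of MV4-11, a human acute myeloid leukemia line labelled FLT3-ITD+ with genotype WT, which the study's text also describes as carrying an MLL-AF4 fusion. The cells had received an empty-vector (EV) lentiviral construct with Cas9, meaning that no gene was targeted, and were cultured for 2 weeks before RNA extraction. There were 3 libraries of this group (replicates 1, 2 and 3) and no second condition, so every comparison is between miRNAs of the same library or between libraries. The labels do not say how far apart the 3 cultures were handled, so p-values measure the spread between these libraries, which may be technical.

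A miRNA gene is transcribed into a long primary RNA that folds into hairpins, Drosha cuts each hairpin out of the primary RNA, and Dicer removes its loop and leaves a duplex of a 5p and a 3p arm. Usually a single arm is kept by an Argonaute protein, and it finds its targets mainly through its seed, which is bases 2 to 8. The cluster is known as an oncogenic miRNA locus that MYC activates: miR-17 and miR-20a are known to repress the cell cycle inhibitor CDKN1A and the pro-apoptotic BCL2L11. High levels of the cluster are a known feature of leukemias with MLL fusions.

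The mature sequences below carry the comparison of the 6 hairpins, because they show that the higher arms fall into only 4 seeds. They were taken from RefSeq on GRCh38.p14 and are written 5′ to 3′ with the seed in capitals. miR-17 and miR-20a share a seed, miR-19a and miR-19b share another, and miR-18a and miR-92a have a seed each.
miR-17-5p: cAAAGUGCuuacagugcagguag
miR-20a-5p: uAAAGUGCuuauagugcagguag
miR-18a-5p: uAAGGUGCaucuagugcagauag
miR-19a-3p: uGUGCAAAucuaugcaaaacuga
miR-19b-3p: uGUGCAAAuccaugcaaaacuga
miR-92a-3p: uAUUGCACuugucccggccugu

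Counted from 1 at the 5′ end, miR-17-5p and miR-20a-5p differed at 2 bases (C1U and C12U), both outside the seed, and miR-19a-3p and miR-19b-3p at 1 base (U11C). The opposite arms are shown because those of the miR-19 pair share a seed of their own, while the opposite arms of the other hairpins each had a different one.
miR-17-3p: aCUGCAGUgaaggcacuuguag
miR-20a-3p: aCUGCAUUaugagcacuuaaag
miR-18a-3p: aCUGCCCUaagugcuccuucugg
miR-19a-5p: aGUUUUGCauaguugcacuaca
miR-19b-1-5p: aGUUUUGCagguuugcauccagc
miR-92a-1-5p: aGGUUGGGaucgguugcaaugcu

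On the plus strand of GRCh38.p14 the 6 hairpins lay within 787 bases, chr13:91350605-91351391, in the order mir-17 (chr13:91350605-91350688), mir-18a (chr13:91350751-91350821), mir-19a (chr13:91350891-91350972), mir-20a (chr13:91351065-91351135), mir-19b-1 (chr13:91351192-91351278) and mir-92a-1 (chr13:91351314-91351391). Neighbouring hairpins were separated by 35 to 92 bases. In 2 of the 3 MIR17HG transcripts of the GENCODE annotation all 6 hairpins lie inside an exon, and in the other they lie inside an intron. The deposited tables carry no coordinates, and these positions come from the reference.

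Total counts were 10991953 to 12694823 per library over mature miRNAs and 11022587 to 12722997 over hairpins. Replicate 1, the deepest, stood apart from replicates 2 and 3 in many miRNAs. Over the 284 hairpins with at least 100 counts in every library, the median hairpin of replicate 2 lay 0.36 above replicate 1 on the log2 scale and that of replicate 3 lay 0.50 above it, while replicates 2 and 3 differed by a median of 0.10. Levels were therefore given per library, and results that rest on replicate 1 were also given without it. Of the 5 markers of white blood cells, miR-142-3p (58425, 163515 and 180242 counts) and miR-155-5p (267606, 280231 and 304911 counts) ranked 19 and 11 among the 783 mature names, whereas the lymphocyte miRNA miR-150-5p had 7 to 21 counts and the red cell miRNA miR-451a 10 to 24. Some of the 10 markers of lymphocytes, red cells, liver, muscle, epithelium or brain were higher. The brain miRNA miR-124-3p had 5145, 12461 and 19065 counts (rank 72). The epithelial miR-200c-3p had 1164, 1769 and 1968 (rank 157), and the muscle miR-1 had 1091, 845 and 865 (rank 194). Those of the 10 not named here had 13 to 262 counts. None of the 10 was at 0. Their summed level was 614.9 to 1919 CPM (counts scaled to a common library total) against 35070 to 60420 for the white blood cell markers.

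The 6 hairpins of this RNA were present at very unequal levels, and mir-20a, mir-17 and mir-92a-1 made up nearly the whole output. FPKM is used for levels here, the CPM divided by the length of the hairpin in kilobases, since the hairpins differ in length. mir-20a was at 130471, 529637 and 719454 FPKM in replicates 1, 2 and 3, a mean of 459854 ± 300628 (SD, n = 3) and rank 4 of 661 hairpins. mir-17 was at 67599.5, 295168 and 414453 FPKM, a mean of 259073.5 ± 176221 (SD, n = 3) and rank 11. mir-92a-1 was at 182615, 206708 and 265523 FPKM, a mean of 218282 ± 42648 (SD, n = 3) and rank 13. Replicate 1 was far below the others for mir-20a and mir-17, and close to replicate 2 for mir-92a-1.

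The remaining hairpins were several times lower in each library. mir-18a was at 10046.4, 29201.3 and 30305.5 FPKM, a mean of 23184 ± 11391 (SD, n = 3) and rank 67. mir-19a was at 7168.62, 18058.6 and 19969.6 FPKM, a mean of 15066 ± 6905 (SD, n = 3) and rank 82. mir-19b-1 was at 4846.63, 15849.5 and 19991.4 FPKM, a mean of 13563 ± 7827 (SD, n = 3) and rank 87. No value of these 3 hairpins reached the lowest value of the other group, and the gap between the third and the fourth hairpin of a library was 6.73-fold, 7.08-fold and 8.76-fold in replicates 1, 2 and 3.

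**Figure D1:**
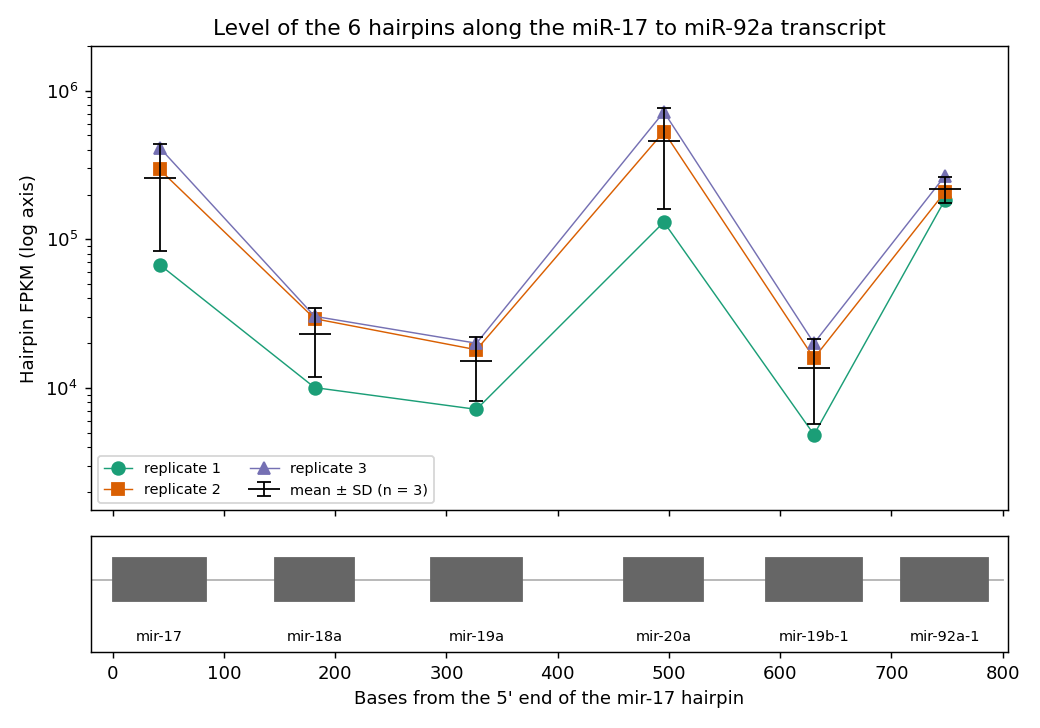
FPKM of the 6 hairpins (log axis) against their distance in bases from the start of mir-17, with the hairpins drawn to scale underneath; points are the 3 libraries, bars the mean ± SD. Levels do not rise or fall steadily along the RNA: mir-17, mir-20a and mir-92a-1 sit between 67599.5 and 719454 FPKM, and mir-18a, mir-19a and mir-19b-1 between 4846.63 and 30305.5.

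As a share of the summed FPKM of the cluster, mir-20a took 32.4%, 48.39% and 48.95% in replicates 1, 2 and 3, which was 43.2% ± 9.40 (SD, n = 3). mir-92a-1 took 45.34%, 18.88% and 18.07%, or 27.4% ± 15.5, and mir-17 took 16.78%, 26.97% and 28.2%, or 24.0% ± 6.27 (SD, n = 3). The leading hairpin thus differed, mir-92a-1 in replicate 1 and mir-20a in replicates 2 and 3, while mir-17, mir-20a and mir-92a-1 together took 94.52%, 94.23% and 95.22%. mir-18a took 2.41% ± 0.312, mir-19a 1.60% ± 0.216 and mir-19b-1 1.34% ± 0.124 (SD, n = 3), and mir-18a was the fourth in every library. That place depends on how reads that mir-19b-1 shares with a copy on the X chromosome are counted, as given below. Without replicate 1 the means over 2 libraries were 48.7% for mir-20a, 27.6% for mir-17, 18.5% for mir-92a-1, and 1.40% to 2.36% for each of the others.

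**Figure D2:**
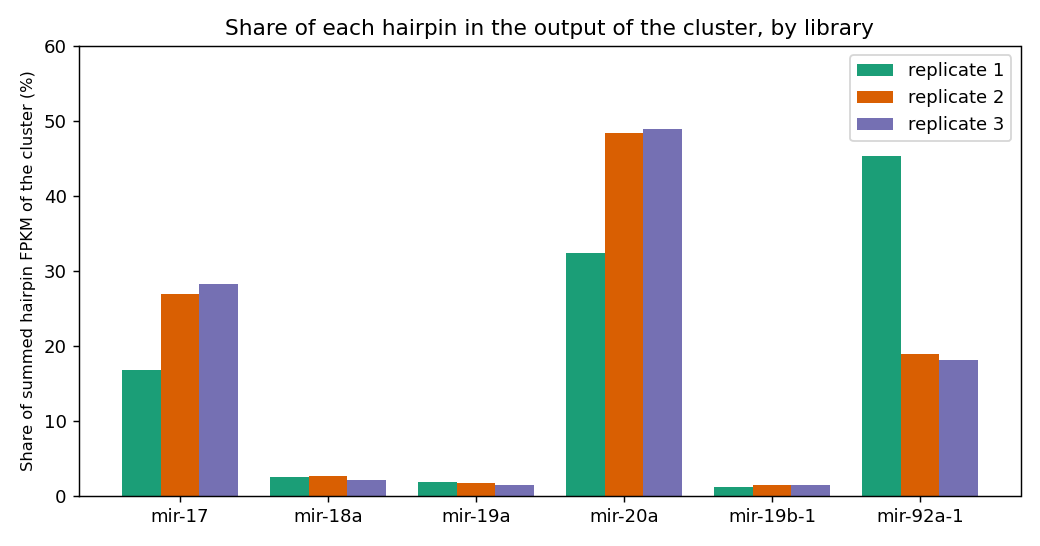
Share of each hairpin in the summed hairpin FPKM of the cluster (%), with a bar for each of the 3 libraries. mir-92a-1 leads in replicate 1 at 45.34%, and mir-20a leads in replicates 2 and 3 at 48.39% and 48.95%.

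Each pair of hairpins was tested on counts per length within libraries (edgeR quasi-likelihood test with the library as a block), together with all 141 pairs of listed hairpins that lie within 10 kb of each other on the same strand. A pair was called at a Benjamini-Hochberg adjusted p under 0.05 and a log2 ratio of at least 1 in size. Of the 15 pairs of the cluster 9 were called, against a background of 64.5% of all pairs, so the share of pairs called was near that background. The 9 called pairs were the 9 that join mir-17, mir-20a or mir-92a-1 to mir-18a, mir-19a or mir-19b-1. The median absolute log2 ratio was 3.38 over the 15 pairs and 1.60 over the 141.

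The widest difference was that of mir-20a over mir-19b-1, with FPKM ratios of 26.92, 33.42 and 35.99 in replicates 1, 2 and 3. Its log2 ratio was 4.99 ± 0.26 (SE, edgeR adjusted p = 0.0002371). This place holds only while the reads that mir-19b-1 shares with its X copy are split between them. With the X counts added, mir-19a was the lowest hairpin in each library, and the pairs were not tested that way. mir-17 exceeded its downstream neighbour mir-18a by 6.729, 10.11 and 13.68 times (log2 ratio 3.29 ± 0.30, edgeR adjusted p = 0.0009916). The neighbours mir-19b-1 and mir-92a-1 at the 3′ end differed in the opposite order, with mir-19b-1 over mir-92a-1 at 0.02654, 0.07668 and 0.07529 (log2 ratio -4.21 ± 0.45, edgeR adjusted p = 0.001427). Along the RNA, a low hairpin therefore lay next to a high hairpin on either side of mir-20a as well as next to mir-17 and mir-92a-1.

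Among the 3 high hairpins no pair was called with all libraries, and the place of mir-92a-1 changed between libraries. The ratio of mir-17 to mir-20a was 0.5181, 0.5573 and 0.5761, below 1 in each of 3 libraries, and its log2 ratio of -0.86 ± 0.23 (edgeR adjusted p = 0.02523) was under the size limit. mir-20a over mir-92a-1 was 0.7145 in replicate 1, 2.562 in replicate 2 and 2.71 in replicate 3, with a log2 ratio of 0.79 ± 0.51 (edgeR adjusted p = 0.2122). Without replicate 1 this ratio was 1.40 on the log2 scale and was called (edgeR adjusted p = 0.0008423). That call depends on how the reads that mir-92a-1 shares with its X copy are counted. With the X counts added, mir-20a and mir-92a-1 took 40.63% and 30.67% of the cluster in replicate 2. In replicate 3 they took 41.35% and 29.64%, and the pair was not tested that way. mir-17 over mir-92a-1 was 0.3702, 1.428 and 1.561, with a log2 ratio of -0.07 ± 0.53 (edgeR adjusted p = 0.9163) that became 0.58 without replicate 1.

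Among the 3 low hairpins the differences were small. mir-18a over mir-19a was 1.401, 1.617 and 1.518 (log2 ratio 0.59 ± 0.12, edgeR adjusted p = 0.009864), and mir-18a over mir-19b-1 was 2.073, 1.842 and 1.516 (0.84 ± 0.14, adjusted p = 0.005784), both under the size limit. mir-19a over mir-19b-1 was 1.479, 1.139 and 0.9989, and did not pass the test (0.25 ± 0.16, edgeR adjusted p = 0.2054). Adapter ligation and amplification in such libraries depend on the sequence of the RNA, so ratios between different miRNAs are ratios of reads and not strictly of molecules.

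Over 56 groups of listed hairpins within 10 kb, the cluster had the highest mean summed level, with 402747.6, 1094622 and 1469697 FPKM. Sums were not divided by the number of hairpins, which was 6 here and 2 in the group with the next highest mean (602736 FPKM). It ranked 2 in replicate 1 and 1 in replicates 2 and 3. Its hairpins took 3.051%, 8.237% and 11.07% of all hairpin counts. The fold between its highest and lowest mean was 33.91, with the X counts of mir-19b-1 left out, and 12 of the 56 groups had a larger fold.

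The preferred arm was the same in all 3 libraries for each hairpin, 5p for mir-17, mir-18a and mir-20a and 3p for mir-19a, mir-19b-1 and mir-92a-1. All 6 pairs of arms were called by the edgeR test, against a background of 83.3% of 216 pairs of arms, with a median absolute log2 ratio of 8.33 against 3.53 for all pairs. Arms were compared as counts, since they are 22 or 23 bases long. miR-20a-5p had 115601, 407854 and 589099 counts and miR-20a-3p had 136, 422 and 612, a log2 ratio of 9.85 ± 0.23 (SE, edgeR adjusted p = 3.198e-06). miR-19a-3p had 6794, 15732 and 18500 counts and miR-19a-5p had 5, 12 and 8, a log2 ratio of 5p over 3p of -10.63 ± 0.38 (edgeR adjusted p = 6.795e-06), which rests on very few counts of the 5p arm.

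miR-18a was the least one-sided of the 6, and its 3p arm kept 10.6%, 8.66% and 10.9% of the counts of both arms. miR-18a-5p had 7782, 20319 and 21773 counts and miR-18a-3p had 925, 1926 and 2671 (log2 ratio 3.17 ± 0.23, edgeR adjusted p = 7.004e-05). miR-17 varied most between libraries: miR-17-5p had 69328, 266662 and 399326 counts and miR-17-3p had 1902, 3275 and 3496. The ratio of these arms was 36.45 in replicate 1, 81.42 in replicate 2 and 114.2 in replicate 3, whereas that of the miR-20a arms was 850, 966.5 and 962.6.

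For the other hairpins with a 3p arm preferred, the unnumbered 3p name also holds reads of a copy on the X chromosome, so the ratio is that of 1 locus over both. miR-19b-1-5p had 43, 138 and 191 counts (log2 ratio to miR-19b-3p -7.78 ± 0.26, edgeR adjusted p = 6.276e-06), and miR-92a-1-5p had 707, 717 and 1038 (log2 ratio to miR-92a-3p -8.87 ± 0.21, edgeR adjusted p = 3.198e-06). Set against the chromosome 13 row of the 3p arm alone, the 3p arm was 119.9, 107.2 and 103.7 times the 5p arm for mir-19b-1 and 252, 243.7 and 229.8 times for mir-92a-1. These ratios moved little between the libraries.

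**Figure D3:**
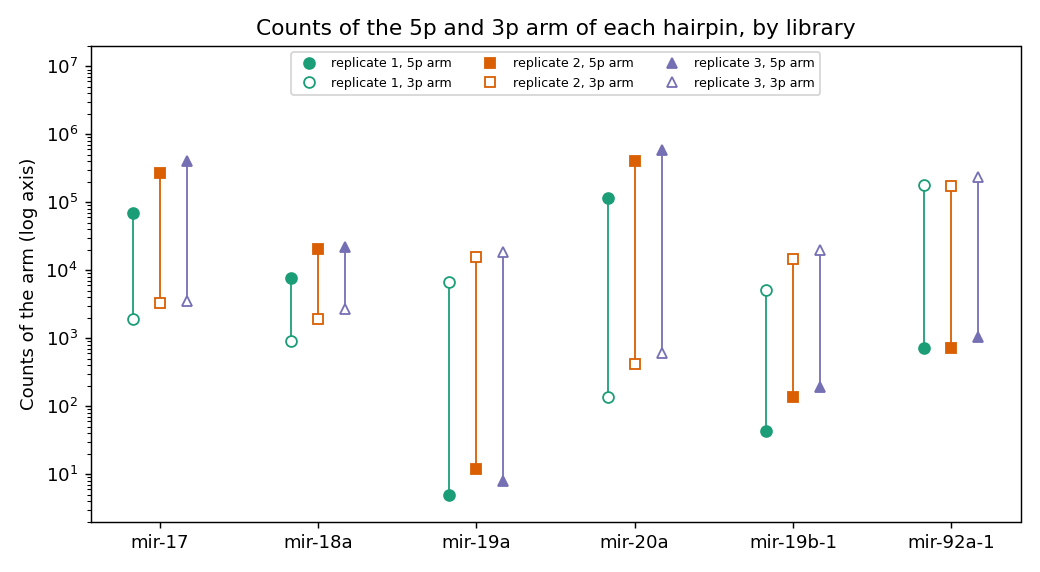
Counts of the 5p arm (filled) and the 3p arm (open) of each hairpin, log axis, with a line joining the arms of a library. The higher arm is 5p for mir-17, mir-18a and mir-20a and 3p for mir-19a, mir-19b-1 and mir-92a-1 in every library, and the gap is smallest for mir-18a.

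Reads of a hairpin outside both annotated arms were few. They were 7.98%, 2.37% and 2.35% of the counts of mir-19a and 2.70%, 1.29% and 1.67% of those of mir-18a, and at most 1.96% for each of the other 4 hairpins. For each of the 6 hairpins this share was highest in replicate 1. Among the paralogous hairpins on chromosome 7, miR-93 and miR-25 preferred the same arm as their relatives in the cluster, 5p as in miR-17 (log2 ratio 6.54 ± 0.21, edgeR adjusted p = 5.51e-06) and 3p as in miR-92a (-6.63 ± 0.26, edgeR adjusted p = 8.319e-06). miR-106b was not called, although its 5p arm carries the seed of miR-17-5p. It had 7124, 24226 and 34204 counts of 5p and 10920, 13092 and 19402 of 3p (log2 ratio 0.37 ± 0.36, edgeR adjusted p = 0.3612). Its higher arm changed between libraries, 3p in replicate 1 (60.52%) and 5p in replicates 2 and 3 (64.92% and 63.81%).

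The cluster has a paralogue on the X chromosome, the miR-106a to miR-363 cluster, whose mir-19b-2 and mir-92a-2 give the same mature 3p arm as mir-19b-1 and mir-92a-1. The 4 hairpins are shown because reads of the shared arm, in capitals, cannot tell the loci apart while reads of the rest can. They are RefSeq sequences on GRCh38.p14, at chr13:91351192-91351278 and chr13:91351314-91351391 on the plus strand and at chrX:134169671-134169766 and chrX:134169538-134169612 on the minus strand.
mir-19b-1: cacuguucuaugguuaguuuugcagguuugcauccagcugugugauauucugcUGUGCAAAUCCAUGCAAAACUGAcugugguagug
mir-19b-2: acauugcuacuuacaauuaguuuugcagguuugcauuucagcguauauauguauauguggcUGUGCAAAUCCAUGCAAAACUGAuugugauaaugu
mir-92a-1: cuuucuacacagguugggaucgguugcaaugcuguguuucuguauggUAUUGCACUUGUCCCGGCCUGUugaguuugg
mir-92a-2: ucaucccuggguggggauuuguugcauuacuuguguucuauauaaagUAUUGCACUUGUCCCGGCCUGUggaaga

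The tables list each shared arm in 2 rows with nearly equal counts, and a row was placed on X where its counts were those of the X hairpin in every library. For miR-19b-3p the chromosome 13 row had 5157, 14790 and 19811 counts and the X row 5159, 14977 and 20139, so that the first held 49.99% (Wilson 95% interval 49.03 to 50.95), 49.69% (49.12 to 50.25) and 49.59% (49.10 to 50.08). For miR-92a-3p the chromosome 13 row had 178199, 174736 and 238515 counts and the X row 165214, 163862 and 225795, and the first held 51.89% (51.72 to 52.06), 51.61% (51.44 to 51.77) and 51.37% (51.23 to 51.51). The intervals include 50% for miR-19b and lie above it for miR-92a in each library. They cover counting error alone, since the reads carry no molecular identifiers.

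Counts outside the shared arm were listed for mir-19b-1 and mir-92a-1. Outside the 3p row, mir-19b-1 had 147, 237 and 335 counts and mir-92a-1 had 735, 735 and 1059. Those of mir-19b-1 include the 43, 138 and 191 counts of miR-19b-1-5p, which differs from mir-19b-2 only in its last few bases. The counts of mir-19b-2 and of mir-92a-2 equalled those of a 3p row in each library, which is how that row was placed on X. Their 0 counts outside the 3p row follow from this placement and are not separate evidence on the loci. The 5p arms of mir-19b-2 and mir-92a-2 and the hairpin mir-363 were not among the rows listed. The hairpins of the X cluster with a 5p arm of their own were low, with 480, 1132 and 1830 counts for mir-106a, 186, 851 and 1243 for mir-20b, and 22, 69 and 57 for mir-18b.

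The levels of mir-19b-1 and mir-92a-1 given above hold the chromosome 13 row alone. If the counts placed on X are added to the chromosome 13 hairpins, with hairpin lengths kept, the shares of the cluster become 40.4% for mir-92a-1, 34.9% for mir-20a, 19.4% for mir-17, 2.13% for mir-19b-1, 1.91% for mir-18a and 1.26% for mir-19a as means of 3 libraries. mir-92a-1 then took 60.97%, 30.67% and 29.64% in replicates 1, 2 and 3 and mir-20a 22.65%, 40.63% and 41.35%, so the leading hairpin of each library was the same as before. The order of the low hairpins was not kept. mir-19b-1, at 1.66%, 2.428% and 2.298%, was below mir-18a (1.744%, 2.24% and 1.742%) in replicate 1 and above it in replicates 2 and 3. By CPM, miR-92a-3p with all its reads (27051, 30804 and 39745) was above miR-20a-5p (9106.2, 37105 and 50427) in replicate 1 and below it in replicates 2 and 3. mir-17, mir-20a and mir-92a-1 were above the other 3 hairpins in every library under both assignments.

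By seed, the cluster was set beside the other listed miRNAs with the same bases 2 to 8. These are shown because the comparison of families rests on them, and they came from the X chromosome (miR-106a, miR-20b and miR-18b), from the miR-106b, miR-93 and miR-25 cluster on chromosome 7, and from single loci on chromosomes 9 (miR-32) and 1 (miR-92b).
miR-106a-5p: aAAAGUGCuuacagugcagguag
miR-20b-5p: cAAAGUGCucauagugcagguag
miR-93-5p: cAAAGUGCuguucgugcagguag
miR-106b-5p: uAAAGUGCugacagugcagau
miR-18b-5p: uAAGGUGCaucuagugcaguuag
miR-25-3p: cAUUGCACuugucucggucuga
miR-32-5p: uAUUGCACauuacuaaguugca
miR-92b-3p: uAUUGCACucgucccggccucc

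miR-106a-5p differs from miR-17-5p at 1 base (A1C) and miR-18b-5p from miR-18a-5p at 1 base (A20U), so a sequencing error could move a read between them. miR-92a-3p differs from miR-92b-3p at 3 bases (U10C, G21C and U22C) and miR-25-3p from miR-92a-3p at 4. Of the counts with the seed AAAGUGC, miR-17-5p and miR-20a-5p made up 75.57%, 78.38% and 79.22%, or 77.7% ± 1.91 (SD, n = 3), and the other 4 members the rest. miR-18a-5p made up 99.7% ± 0.0473 of the seed AAGGUGC. miR-92a-3p made up 81.3%, 72.45% and 73.18% of the seed AUUGCAC, or 75.6% ± 4.91, and 37.8% if its reads are shared equally with the X copy. For the seed GUGCAAA no other miRNA was listed, and the cluster's share is 67.7% if miR-19b-3p is shared equally with the X copy.

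Seed families differed widely in their share of all mature counts. The AUUGCAC family took 3.327%, 4.252% and 5.431% in replicates 1, 2 and 3, and the AAAGUGC family 1.928%, 7.829% and 10.68%. The miR-19 family took 0.1348%, 0.4139% and 0.5003%, and the miR-18 family 0.06146%, 0.1855% and 0.1869%. The miR-92a family thus led in replicate 1 and the miR-17 family in replicates 2 and 3, and both were above the miR-19 and miR-18 families in each library.

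**Figure D4:**
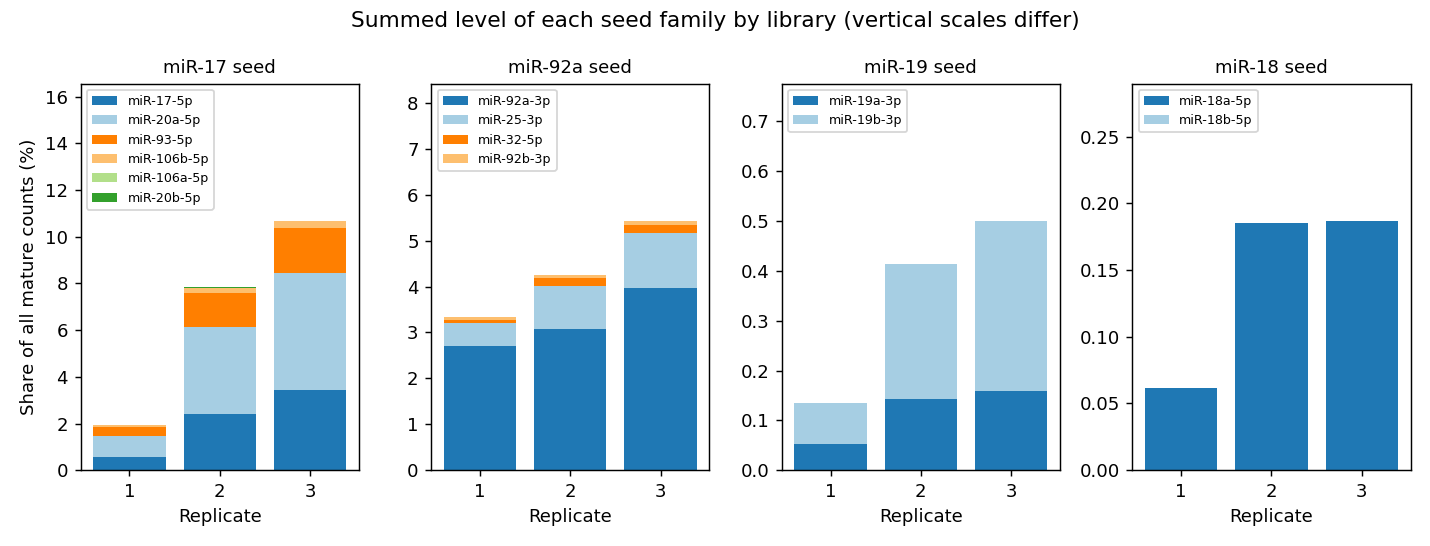
Share of all mature counts (%) held by each seed family in the 3 libraries, stacked by miRNA, with a separate vertical scale in each panel. The miR-17 family goes from 1.928% to 10.68% between replicates 1 and 3, mostly miR-20a-5p, miR-17-5p and miR-93-5p, and the miR-92a family from 3.327% to 5.431%.

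Pairs of miRNAs that share a seed were tested in the same way, with counts per length. Of the 15 pairs that include a member of the cluster 12 were called, against a background of 80.6% of 175 pairs, and the median absolute log2 ratio was 3.93 against 3.63 for all pairs. The difference from the X relatives was the largest: miR-20a-5p over miR-20b-5p at 9.02 ± 0.24 (edgeR adjusted p = 1.415e-07), miR-18a-5p over miR-18b-5p at 8.45 ± 0.18 (9.292e-08), miR-17-5p over miR-20b-5p at 8.38 ± 0.20 (1.122e-07), and miR-106a-5p over miR-17-5p at -7.61 ± 0.25 (3.55e-07), all on the log2 scale.

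The relatives on chromosome 7 were nearer to the cluster. miR-93-5p had 51984, 159877 and 222049 counts, below miR-20a-5p by a log2 ratio of 1.30 ± 0.17 (edgeR adjusted p = 0.0003552) and below miR-17-5p by 0.67 ± 0.17 (adjusted p = 0.009219), the second under the size limit. miR-25-3p had 63786, 102661 and 139955 counts, and its log2 ratio to miR-92a-3p was -1.96 ± 0.22 (edgeR adjusted p = 0.0001483). The log2 ratio of miR-106b-5p to miR-17-5p was -3.29 ± 0.16 (edgeR adjusted p = 2.324e-06).

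Within the miR-92a family, miR-32-5p had 7734, 18402 and 20362 counts and miR-92b-3p 7476, 7718 and 9843. The log2 ratio of miR-32-5p to miR-92a-3p was -4.72 ± 0.31 (edgeR adjusted p = 9.898e-06), and that of miR-92a-3p to miR-92b-3p was 5.51 ± 0.18 (edgeR adjusted p = 3.828e-07). Inside the cluster, miR-19a-3p was below miR-19b-3p in 3 of 3 libraries (log2 ratio -0.88 ± 0.13, edgeR adjusted p = 0.0006963), a difference under the size limit in which miR-19b-3p holds the reads of both loci. Their opposite arms differed more, with miR-19a-5p over miR-19b-1-5p at -3.73 ± 0.43 (edgeR adjusted p = 0.0001759).

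The replicates did not differ alike over the cluster. As CPM of hairpins and relative to replicate 1, mir-17 was higher by a log2 ratio of 2.13 in replicate 2 and 2.62 in replicate 3, mir-20a by 2.02 and 2.46, and mir-19b-1 by 1.71 and 2.04. mir-18a was higher by 1.54 and 1.59 and mir-19a by 1.33 and 1.48. mir-92a-1, from the same RNA, was higher by only 0.18 and 0.54, next to the medians of 0.36 and 0.50 over all hairpins with at least 100 counts. Thus 5 of the 6 hairpins were 2-fold or more higher in both replicates than in replicate 1, which held for 17.6% of those hairpins (50 of 284). The median of the 6 was 1.62 in replicate 2 and 1.82 in replicate 3, and with a single group there is no test of these differences.

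The ratios also differed among the hairpins of the X and chromosome 7 clusters. mir-20b was higher than in replicate 1 by log2 ratios of 2.40 and 2.86, mir-93 by 1.83 and 2.21, mir-106a by 1.44 and 2.05 and mir-106b by 1.25 and 1.69. mir-25 was higher by 0.89 and 1.25, which was above the medians of 0.36 and 0.50 over all hairpins tested. mir-92a-2, with 0.20 and 0.57, stood with mir-92a-1, whose 3p arm it shares. All counts of mir-92a-2 are those of a row of that shared arm, so its likeness to mir-92a-1 is not separate evidence on the X locus. The miR-92a relative from another locus, miR-92b-3p, gave 0.25 and 0.52, while miR-32-5p with the same seed gave 1.46 and 1.52.

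**Figure D5:**
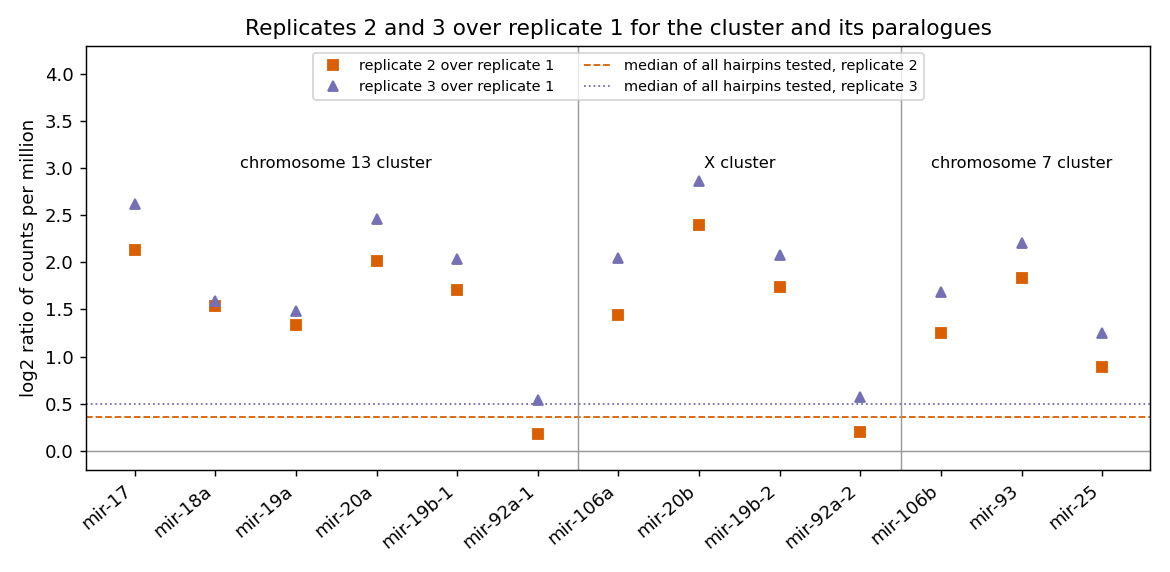
log2 ratio of CPM in replicate 2 (squares) and replicate 3 (triangles) over replicate 1, for the hairpins of the chromosome 13, X and chromosome 7 clusters; dashed and dotted lines are the medians of 284 hairpins, 0.36 and 0.50. mir-92a-1 at 0.18 and 0.54 and mir-92a-2 at 0.20 and 0.57 lie near these lines, and the other hairpins lie above them.

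The size of these ratios depended on scaling. With TMM factors the median of all hairpins was at 0.03 and 0.07, the ratios of mir-17 were 1.79 and 2.18 and those of mir-92a-1 were -0.15 and 0.10, so that mir-92a-1 was lower in replicate 2 than in replicate 1, and 5 of 6 hairpins passed 2-fold in both against 8.80% of all. With median-of-ratios scaling mir-92a-1 was at -0.19 and 0.06, and 4 of 6 passed, against 8.45%. By CPM, 3 of the 5 markers of white blood cells passed 2-fold in both. These were miR-223-3p with log2 ratios of 1.61 and 1.81, miR-142-3p with 1.69 and 1.75 and miR-142-5p with 1.11 and 1.10. Lower ratios were those of miR-155-5p, 0.27 and 0.31, and miR-181a-5p, 0.40 and 0.32. Of the 10 markers of other cells and tissues 2 passed, miR-124-3p (1.48 and 2.01) and miR-133a-3p (1.27 and 1.42). The medians of the 10 were 0.95 and 0.90. Of the 330 mature names with at least 100 counts in every library 20.9% passed. With TMM factors 2 of the 5 and 1 of the 10 passed, against 12.4% of mature names, and with median-of-ratios scaling 2 and 1, against 11.5%. Their part in the difference of the replicates was not tested.

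Over the 140 mature miRNAs with at least 1000 counts in every library and a sequence, the correlation across miRNAs of GC content with the log2 ratio to replicate 1 was weak (Spearman's rho -0.138 in replicate 2 and -0.139 in replicate 3, given as a description without p). GC content was 47.83% in miR-17-5p, 39.13% in miR-20a-5p and 54.55% in miR-92a-3p, where the median was 47.62%. The coefficient of variation over the 3 libraries was 68.0% for mir-17, 65.4% for mir-20a, 57.7% for mir-19b-1, 49.1% for mir-18a, 45.8% for mir-19a and 19.5% for mir-92a-1. Among 156 hairpins with at least 1000 counts in every library, whose median was 26.49%, they ranked 2, 4, 9, 21, 25 and 98 from the highest.

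The arms of a hairpin did not differ between replicates by the same amount in every case. miR-17-5p was higher than in replicate 1 by log2 ratios of 2.15 and 2.65 and miR-17-3p by 0.99 and 1.00. The arms of the other hairpins were closer, with 2.03 and 2.47 for miR-20a-5p against 1.84 and 2.29 for miR-20a-3p, 1.59 and 1.60 for miR-18a-5p against 1.27 and 1.65 for miR-18a-3p, and 0.19 and 0.56 for miR-92a-3p against 0.23 and 0.67 for miR-92a-1-5p. The miR-92a arms, from different ends of the hairpin, both stayed near the median of all miRNAs.

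The mature miRNAs whose pattern over the 3 libraries was most like that of miR-17-5p were found among 162 others with at least 1000 counts in every library, by the root mean square difference of log2 CPM centred on their mean over the libraries. The nearest 5 were miR-339-5p at 0.055 (4288, 16594 and 22844 counts), miR-20a-5p at 0.074, miR-106b-5p at 0.109, miR-374b-5p at 0.176 (6380, 18262 and 30631 counts) and miR-93-5p at 0.183. Of these, miR-20a-5p, miR-106b-5p and miR-93-5p share the seed of miR-17-5p. The other arms of the cluster came later, miR-19b-3p at place 9, miR-18a-5p at 19, miR-19a-3p at 20, miR-17-3p at 49 and miR-92a-3p at 84. With 3 libraries this order is a description, with no test.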

How the data were processed

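Small RNA of 3 replicate MV4-11 cultures was sequenced by the authors on an Illumina HiSeq from New England Biolabs libraries and counted over mature miRNAs and hairpins of miRBase release 21. The submitters' processing notes name Novoalign 2.08.03 and the builds hg19 and mm10, without their roles. Sequencing was stranded, per the study's methods. Trimming, the strand setting of the counting and the treatment of reads with several matches are not given in the sources used here. Both deposited tables hold raw counts and FPKM, in which the authors scaled each count by feature length and library total.

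Rows of a mature name were summed. Seeds, sequences and coordinates came from RefSeq (GRCh38.p14, matched by name; 679 of 783 mature names had a sequence) and transcripts from GENCODE. Pairs were tested on counts with edgeR 4.0.16 (R 4.3.3) by the quasi-likelihood test, each row a pair, the library a block and the library total an offset, plus feature length for pairs of hairpins and of seed relatives. Both features had to be above 0 in every library. Log2 ratios carry an SE taken from the F statistic, and p-values were adjusted over all pairs of a kind. Alternatives were limma 3.58.1 on FPKM ratios with a pseudocount of 1 or 10, DESeq2 1.42.0, other filters, scalings and distances, and each library left out. The fit was tested on simulated counts. Other values were computed with Python 3.11.15 and pandas 2.3.3. The genes named were all members, all listed miRNAs with the seed of a member's higher arm, the hairpins of the paralogous clusters and the 5 miRNAs most like miR-17-5p. Members and lists were chosen with earlier results of these data known.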

Additional observations from a re-analysis of the deposited data

How the results depend on the processing

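Of 491 values recomputed under other settings, 472 were counted as kept. They kept their direction and side of the threshold, stayed within the spread of the libraries or, for counts of pairs, stayed within 1.5 times the count reported. Leaving a library out could not move a mean share or the mean summed level past this spread, so those settings are no check on them. The share of mir-92a-1 was counted as kept when it went from 27.4% to 42.1% with summed mature arms, since its SD was 15.5. Counts of pairs moved most with the set tested: arms 142 at 10 or more counts and 147 for names with a single row, hairpins 72 within 5 kb and 105 within 50 kb, and seeds 118 at 10 or more counts and 188 for bases 2 to 7. Of the 6 pairs of arms of the cluster, 5 and 4 were then called, since the others were not tested. The pairs called were 178 to 182 for arms, 90 to 92 for hairpins and 141 to 142 for seeds with limma or DESeq2, and 159 to 189, 91 to 93 and 139 to 146 with a library left out. Among pairs of the cluster, 6 pairs of arms, 9 to 10 of hairpins and 12 to 13 of seed relatives were then called. With a single group no pairing of samples across groups exists; without the replicate block 181, 92 and 139 pairs were called, and miR-20a-5p over miR-93-5p at 1.36 lost its call (edgeR adjusted p = 0.1111). The log2 ratio of mir-17 over mir-92a-1 turned from -0.07 to 0.25 without the block and to 0.04 for counts not divided by length, and ran from -0.46 to 0.58 with a library left out, the latter without replicate 1. Without replicate 1, mir-20a over mir-92a-1 (1.40) and miR-19a-3p over miR-19b-3p (-1.02) were called.

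Summed mature arms, a setting that gives shared 3p names whole to the cluster and also uses the length of the arms, moved the share of mir-92a-1 to 42.1%, mir-20a to 31.7%, mir-17 to 20.9%, mir-19b-1 to 2.36%, mir-18a to 1.70% and mir-19a to 1.27%. Each step alone was added after the data were seen: with the X counts added to the hairpins mir-19b-1 was at 2.13%, mir-18a at 1.91% and mir-19a at 1.26%, and with mature arms of the chromosome 13 rows mir-19b-1 was at 1.49%, mir-92a-1 at 28.9% and mir-20a at 39.7%. Hairpin counts moved mir-19b-1 to 1.52%. Sharing these reads equally with X moved the seed shares to 37.8% for AUUGCAC and 67.7% for GUGCAAA. The median log2 ratio of the hairpins to replicate 1, averaged over replicates 2 and 3, was 1.72, and became 1.34 with TMM and 1.30 with median-of-ratios scaling. The treatment of reads with several matches limits every value of miR-19b and miR-92a, and counts of 5 to 12 limit that of miR-19a-5p.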
